A study of Mus musculus with 16 samples.

Results

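The ligands of the TGF-beta and activin branch, their receptors and the inhibitory SMADs are described here as 10 genes, Tgfb1, Tgfb2, Tgfb3, Inhba, Inhbb, Tgfbr1, Tgfbr2, Tgfbr3, Smad6 and Smad7. They were matched by gene name in the array files, by a rule that uses no measured value, although the set was drawn up with earlier results of these data known. The array held all 10 among 30214 gene names, and all 10 passed the filter on dim probes, as did 19367 genes in all. The study asked which mRNAs sit on ribosomes in insulin-treated hepatocytes when the initiation factor eIF6 is depleted. It used AML12 cells, a non-tumourigenic line of mouse hepatocytes infected with a lentivirus for a scramble or an eIF6 shRNA and selected with puromycin. Every culture of both kinds received doxycycline, which switches on the shRNA, and then insulin for 1 h. The insulin dose is 100 nM in the methods and in 1 label, and 100 mM in another. Sucrose gradients gave a polysomal pool (mRNA loaded with many ribosomes) and a subpolysomal pool (free mRNA and lighter complexes), so that the groups were scramble subpolysomal, scramble polysomal, eIF6 shRNA subpolysomal and eIF6 shRNA polysomal, each with 4 arrays. No group lacked insulin or doxycycline, each arm is 1 cell line with its shRNA, and the culture medium held serum, dexamethasone and a supplement with insulin.

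TGF-beta and the activins are secreted dimers that bring together type I and type II receptor kinases. The activated type I receptor phosphorylates SMAD2 and SMAD3, which enter the nucleus with SMAD4 and change transcription, while SMAD6 and SMAD7 block the receptor and are themselves targets of the pathway. In liver, TGF-beta is best known for halting hepatocyte proliferation and for driving collagen production by stellate cells, and activin A, the dimer of the Inhba product, also restrains hepatocyte growth.

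The array measured each of these mRNAs through probes of 60 bases. One probe each of Tgfb1, Tgfb2 and Inhba is shown, as examples from the TGF-beta and the activin ligands. In their best ungapped alignment the Tgfb1 and Tgfb2 probes overlapped by 41 bases, of which 28 (68.3%) were identical, and capitals mark these identical bases. The Inhba probe had 31.6% identity with the Tgfb1 probe over 57 aligned bases and 40% with the Tgfb2 probe over 55, and is left in lower case. On mm9 they lie at chr7:26489877-26489936 (plus strand), chr1:188449333-188449392 (minus strand) and chr13:16118634-16118693 (plus strand).
Tgfb1: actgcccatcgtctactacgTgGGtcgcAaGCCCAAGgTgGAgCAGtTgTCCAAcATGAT
Tgfb2: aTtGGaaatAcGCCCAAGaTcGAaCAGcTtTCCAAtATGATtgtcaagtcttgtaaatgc
Inhba: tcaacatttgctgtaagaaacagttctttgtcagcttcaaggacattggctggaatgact

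The 250 bases before the gene start of Inhba and Tgfb2, which moved furthest down and up among the 10, come from RefSeq on GRCm38.p6 at chr13:16011601-16011850 (plus strand) and chr1:186705990-186706239 (minus strand). Of the 10 genes, 7 had such a window in the table used here. The windows were searched on both strands for the AP-1 site (TGACTCA or TGAGTCA), the CRE (TGACGTCA), the SMAD palindrome (GTCTAGAC), the SMAD box (CAGAC) and the GC box (GGGCGG), none of which contains another, and capitals mark the matches.
Inhba: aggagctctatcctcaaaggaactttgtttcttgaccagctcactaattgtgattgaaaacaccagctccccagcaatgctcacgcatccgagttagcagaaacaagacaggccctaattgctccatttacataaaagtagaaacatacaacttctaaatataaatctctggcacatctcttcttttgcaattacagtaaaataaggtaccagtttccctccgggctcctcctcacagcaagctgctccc
Tgfb2: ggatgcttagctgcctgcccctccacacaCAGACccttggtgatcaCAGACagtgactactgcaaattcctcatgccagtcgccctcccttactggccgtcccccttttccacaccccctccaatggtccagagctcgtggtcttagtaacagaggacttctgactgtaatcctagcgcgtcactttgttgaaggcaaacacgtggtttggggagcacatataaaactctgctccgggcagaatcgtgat

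The Inhba window held none of these letters and was 43.2% G or C, against a median of 52.4% over 32851 windows. The Tgfb2 window held 2 SMAD boxes, at 221 and 204 bases before the start, and no other match. A SMAD box occurs in 42.2% of all windows of this length, the GC box in 32.7%, the AP-1 site in 4.46%, the CRE in 1.55% and the SMAD palindrome in 0.167%. The windows of Tgfb1 and Smad6 held 5 and 4 GC boxes. These matches describe the letters and are not evidence of binding.

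All values below are log2 signals after quantile normalization, from arrays on which between 20196 and 24960 probes were well above background, and 4 arrays a group set their precision. Differences are eIF6 shRNA minus scramble, called at an adjusted p under 0.05 in limma over all 19367 genes. Eif6, the targeted mRNA, was 2.08-fold lower on polysomes (log2 -1.05 ± 0.0788, SE) and differed by 0.02 ± 0.0788 in subpolysomes. With 8 spike-in probes as the scale its polysomal difference was -1.37 and not called (adjusted p = 0.104, limma). The hepatocyte marker Alb was well above background on 7 of 16 arrays and Apoa1 on 3, whereas Trf, Hnf4a, Krt8 and Krt18 were on all 16. The log2 of the summed signal of the 10 hepatocyte markers ran from 18.37 to 18.97 on scramble polysomes and from 18.51 to 19 with eIF6 shRNA, a sum carried by Krt18 and Krt8. Of these markers Ttr and Afp rose, by 1.15 and 1.26 on polysomes and by 1.33 and 1.19 in subpolysomes, and none of the other 8 was called in either fraction. Of 8 stellate cell and fibroblast markers 6 were tested and 5 fell on polysomes, Lrat and Reln being above background on no array. The sum of those tested was 16.33 to 16.88 on scramble polysomes against 14.36 to 14.9 with eIF6 shRNA (15.44 to 15.59 and 14.8 to 15.14 in subpolysomes). This sum was carried mostly by Acta2 and Vim, with mean log2 signals of 14.3 and 13.93 over the 16 arrays. Of 6 endothelial markers, Cdh5, Stab2, Tek and Lyve1 were above background on no array. Pecam1 and Kdr were well above it on all 16 and were not called in either fraction. Of 4 macrophage markers tested only Csf1r fell on polysomes (-1.67), while no cholangiocyte marker was called there.

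With eIF6 depleted, 2 of the 10 mRNAs fell on polysomes, Inhba and Tgfb3, and 3 rose, Tgfb2, Tgfbr1 and Smad6. Over all genes 10.7% were called lower and 11.1% higher, and 10 genes are too few to set the counts of 2 and 3 apart from these shares. In subpolysomes the same 2 ligands fell and Tgfb2 and Tgfbr1 rose, where 12.3% of all genes were called lower and 11.8% higher. The median polysomal change of the 10 was 0.18, against 0.02 over all genes. All these changes are relative to the other mRNAs of the same fraction, since quantile normalization sets every array to a common scale. The paper reports fewer polysomes after eIF6 depletion with insulin. It also reports similar absolute levels for those relatively higher mRNAs that it checked. Absolute amounts on ribosomes were not measured here. Fewer cells that make an mRNA and less of it per cell cannot be told apart in these bulk samples.

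**Figure D1:**
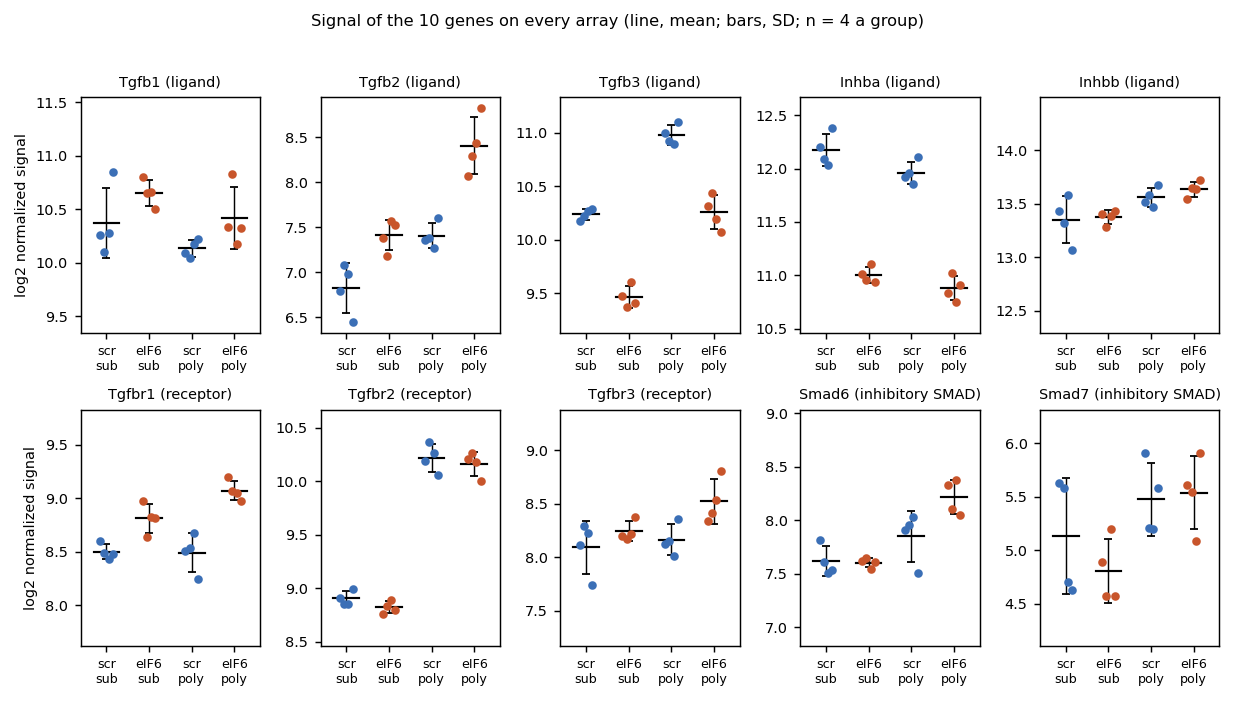
Log2 normalized signal of each of the 10 genes on every array (blue, scramble; orange, eIF6 shRNA), with subpolysomal groups (sub) left of polysomal groups (poly); lines are means and bars SD, n = 4. The scramble and eIF6 shRNA arrays of Inhba, Tgfb3, Tgfb2 and Tgfbr1 do not overlap in either fraction. How many of all genes do the same was not counted. Each panel has its own axis, so that levels of different genes cannot be compared.

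Inhba encodes the beta A subunit that forms activin A and takes part in inhibin A. On scramble polysomes its signal was 11.92, 11.96, 11.86 and 12.11 in replicates 1 to 4, and on eIF6 shRNA polysomes 10.84, 11.02, 10.75 and 10.91. In subpolysomes it was 12.20, 12.09, 12.03 and 12.38 in scramble cells and 11.02, 10.95, 11.11 and 10.94 with eIF6 shRNA. Every eIF6 shRNA array lay below every scramble array of its fraction, in the subpolysomal pool as on polysomes. Inhba fell 2.11-fold on polysomes (log2 -1.08 ± 0.0919, SE, adjusted p = 5.71e-07, limma) and 2.25-fold in subpolysomes (-1.17, adjusted p = 3.65e-07). It was called lower on polysomes in all 15 alternative analyses, including 8 spike-in probes as the scale (adjusted p = 0.0389), which left the subpolysomal change of -1.40 uncalled (adjusted p = 0.166). Inhba has 1 probe, so that taking the brightest probe or another filter left its polysomal value at -1.08. The fibroblast marker sum given above fell in the same arrays, and its part in the lower Inhba signal was not tested.

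Tgfb3 is the third TGF-beta isoform, best known from palate and lung development. Its polysomal signal was 11.00, 10.92, 10.90 and 11.10 in scramble cells and 10.32, 10.44, 10.19 and 10.07 with eIF6 shRNA. Its subpolysomal signal was 10.18, 10.22, 10.27 and 10.28 against 9.48, 9.37, 9.61 and 9.40. No eIF6 shRNA array reached a scramble array of the same fraction. The decrease was 1.65-fold on polysomes (log2 -0.72 ± 0.0885, SE, adjusted p = 2.26e-05, limma) and 1.71-fold in subpolysomes (-0.77, adjusted p = 1.52e-05). As for Inhba, the part of the fibroblast markers was not tested. The single probe of Tgfb3 lies at chr12:87397804-87397863 (mm9, minus strand).

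Tgfb2 moved the other way from its isoform Tgfb3. On polysomes it stood at 7.36, 7.38, 7.28 and 7.60 in scramble cells and at 8.08, 8.29, 8.44 and 8.83 with eIF6 shRNA. In subpolysomes it stood at 6.80, 7.09, 6.98 and 6.45 against 7.39, 7.18, 7.57 and 7.52. The groups did not overlap in either fraction, although the nearest subpolysomal arrays were close. Tgfb2 rose 2-fold on polysomes (log2 1.00 ± 0.164, SE, adjusted p = 0.000333, limma) and 1.5-fold in subpolysomes (0.59, adjusted p = 0.0163). Its 2 probes agreed on polysomes, with 1.02 and 0.99, and gave 0.46 and 0.72 in subpolysomes, where the first was not called alone (adjusted p = 0.0977). The subpolysomal call was lost without replicate 1 or 3 (adjusted p = 0.0818 and 0.091).

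For the other ligand mRNAs the arrays of the shRNAs overlapped. Tgfb1, the isoform most tied to liver fibrosis, had 10.05 to 10.23 on scramble polysomes and 10.18 to 10.84 with eIF6 shRNA, a difference of 0.28 with a 95% interval of -0.06 to 0.62 (adjusted p = 0.252, limma). Its subpolysomal difference was also 0.28, and 1 scramble array, replicate 4 at 10.85, lay above all eIF6 shRNA arrays. Without replicate 4 that difference was 0.49 and was called (adjusted p = 0.0289). Inhbb, which encodes the beta B subunit of activin B, ranged from 13.47 to 13.67 on scramble polysomes and from 13.54 to 13.72 with eIF6 shRNA. Its polysomal difference was 0.08 (interval -0.14 to 0.29) and its subpolysomal difference 0.02.

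Among the receptors, Tgfbr1, the type I kinase that phosphorylates SMAD2 and SMAD3, rose on polysomes. Its polysomal signal was 8.51, 8.54, 8.68 and 8.25 in scramble cells and 9.20, 9.07, 9.05 and 8.98 with eIF6 shRNA. Its subpolysomal signal was 8.60, 8.49, 8.43 and 8.48 against 8.97, 8.64, 8.82 and 8.82. The groups were apart in both fractions, though only narrowly in subpolysomes. The polysomal increase was 1.5-fold (log2 0.58 ± 0.0988, SE, adjusted p = 0.000481, limma) and the subpolysomal increase 1.24-fold (0.31, adjusted p = 0.0314). Both kept probes were called on polysomes (0.47 and 0.69) and neither alone in subpolysomes (0.19 and 0.44), and the other 2 probes were too dim to be kept. The polysomal call was lost with spike-in scaling and without the filter on dim probes (adjusted p = 0.0828). The subpolysomal call held in 7 of 15 alternatives and was lost without replicate 1, 2 or 3 (adjusted p = 0.146, 0.082 and 0.155), and with spike-in scaling that difference was -0.008.

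The type II and type III receptor mRNAs were not called. Tgfbr2, the type II kinase that binds the ligand first, was 10.19, 10.37, 10.26 and 10.06 on scramble polysomes and 10.21, 10.27, 10.18 and 10.00 with eIF6 shRNA. These values interleave, and the difference of -0.06 had a 95% interval of -0.23 to 0.12, the narrowest of the 10 on polysomes (adjusted p = 0.72, limma). Tgfbr3, or betaglycan, a co-receptor that presents TGF-beta2 and serves inhibin, ranged from 8.01 to 8.36 in scramble and from 8.33 to 8.81 in eIF6 shRNA polysomes. Its difference of 0.36 (interval 0.08 to 0.64) missed the threshold (adjusted p = 0.0632) and passed it in 4 of 15 alternatives, among them the slide as a block (adjusted p = 0.0336) and the fit without replicate 4 (adjusted p = 0.00999).

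Smad6, which chiefly restrains BMP receptors, rose 1.29-fold on polysomes. Its polysomal signal was 7.91, 7.96, 8.03 and 7.50 in scramble cells and 8.33, 8.11, 8.38 and 8.05 with eIF6 shRNA. All eIF6 shRNA arrays lay above all scramble arrays there, the nearest pair almost touching. The difference was 0.37 ± 0.117 (SE, adjusted p = 0.0364, limma), which was lost without replicate 1, 2 or 3 (adjusted p = 0.167, 0.0915 and 0.116) or without the filter (0.0586) and was -0.10 with spike-in scaling. In subpolysomes Smad6 differed by -0.01, with values between 7.51 and 7.82 in scramble cells and between 7.55 and 7.64 with eIF6 shRNA. Smad7, the general antagonist of the type I receptor, ranged from 5.20 to 5.91 on scramble polysomes and from 5.08 to 5.91 with eIF6 shRNA. Its polysomal interval, -0.49 to 0.62, was the widest of the 10.

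How far these calls depend on the scale was read from 8 spike-in probes. With that scale the median of all genes moved from 0.02 to -0.48 on polysomes and from 0.02 to -0.24 in subpolysomes. On polysomes 1 member (Inhba) was then called lower and none higher, where 1044 and 98 of all 19367 genes were. Relative to the median of all genes, the polysomal differences were then -1.08 for Inhba, -0.73 for Tgfb3, 1.05 for Tgfb2, 0.61 for Tgfbr1 and 0.38 for Smad6. Spike-in scaling shifts every gene of an array by the same amount, which subtracting the median takes out again. These 5 relative differences were therefore the same with 75th percentile scaling and cannot show how far the calls depend on the scale. The unadjusted signs of the polysomal Smad6 and the subpolysomal Tgfbr1 difference turned.

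**Figure D2:**
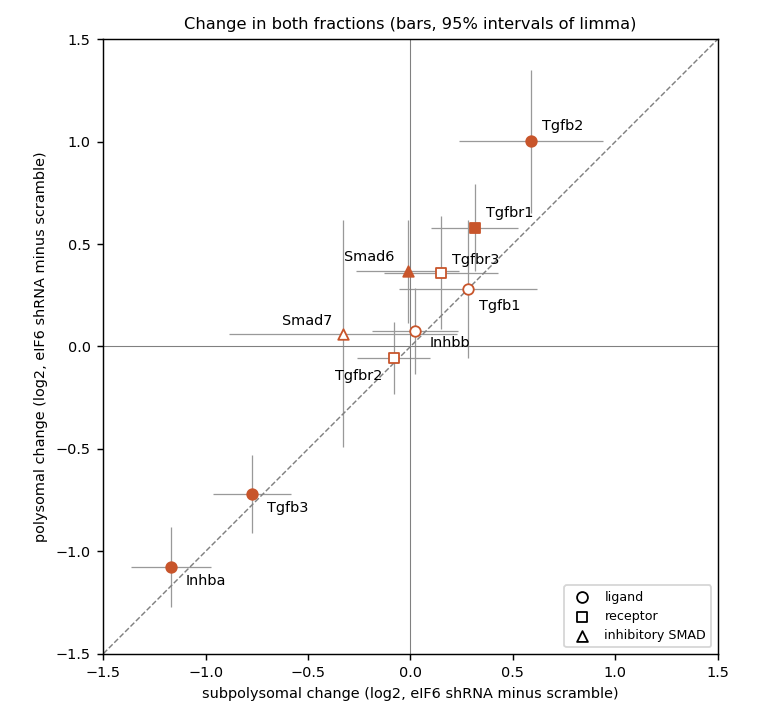
Polysomal change against subpolysomal change of the 10 genes (log2, eIF6 shRNA minus scramble), with 95% intervals from limma (n = 4 a group); filled symbols were called on polysomes and the dashed line marks equal change in both fractions. Inhba and Tgfb3 lie close to the line, with subpolysomal changes of -1.17 and -0.77, and Tgfb2, Tgfbr1, Smad6 and Smad7 lie above it without a called difference between fractions.

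Translational efficiency, the polysomal over the subpolysomal signal, was compared to see whether an mRNA moved onto or off ribosomes. None of the 10 was called in either direction in limma, where 1.1% of all genes were called lower and 0.403% higher. With shares this low, 10 genes are too few to set the absence of calls apart from them. At an unadjusted p under 0.05 limma gave 1 of the 10, Smad6 (adjusted p = 0.355), as it gave 2421 of 19367 genes in all, and none was called in any of the 15 alternatives. For Smad6 the log2 ratio was 0.09, 0.35, 0.52 and -0.04 in scramble replicates 1 to 4 and 0.71, 0.47, 0.83 and 0.44 with eIF6 shRNA, so that the shRNAs overlapped. The difference was 0.38, with a 95% interval of 0.03 to 0.74.

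For Tgfb2 the ratio was 0.57, 0.30, 0.30 and 1.16 in scramble cells and 0.69, 1.11, 0.87 and 1.31 with eIF6 shRNA. Its difference of 0.41 had an interval of -0.08 to 0.91, since scramble replicate 4 lay among the eIF6 shRNA values. Inhba and Tgfb3 differed by 0.09 (interval -0.19 to 0.37) and 0.05 (-0.22 to 0.32), small against their decrease in each fraction. Tgfbr1 differed by 0.27 (-0.03 to 0.57), Smad7 by 0.39 (-0.39 to 1.18), Tgfbr3 by 0.21 (-0.18 to 0.60) and Inhbb by 0.05 (-0.25 to 0.35). Tgfbr2 differed by 0.03 (-0.22 to 0.28) and Tgfb1 by 0.00 (-0.48 to 0.48). By comparison the targeted mRNA, Eif6, lost 1.07 on this scale (adjusted p = 0.000145, limma). Its 3 probes gave -0.50, -1.405 and -1.30, the first not called alone (adjusted p = 0.182, limma). The Eif6 call was lost with spike-in scaling.

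**Figure D3:**
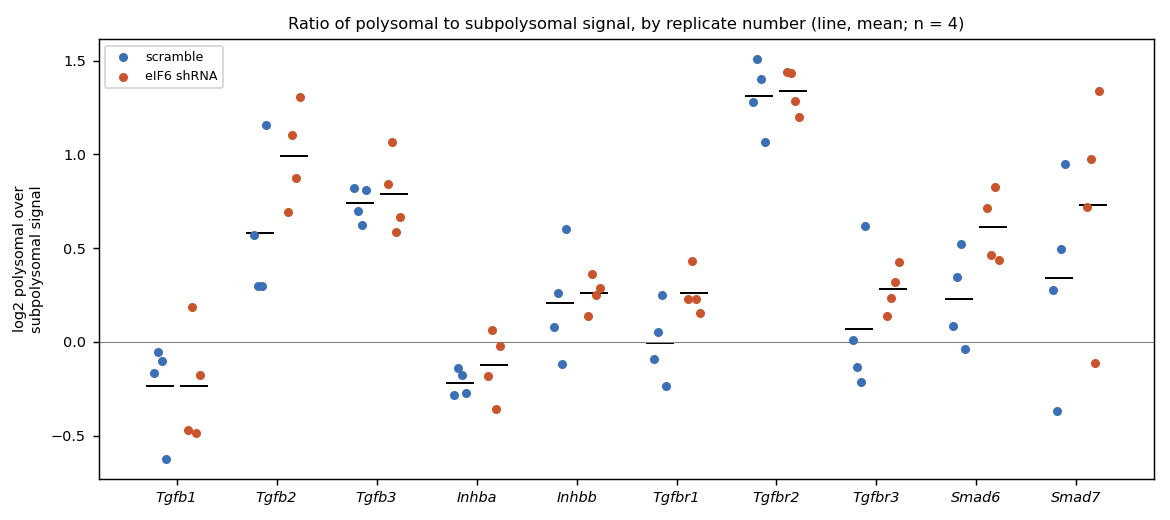
Polysomal over subpolysomal signal (log2) for each of the 10 genes in scramble (blue) and eIF6 shRNA cells (orange), one point for each replicate number (n = 4) and a line at the mean. The ratios of the shRNAs overlap for every gene, and Tgfbr2 has scramble ratios of 1.07 to 1.51.

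In scramble cells the ratio itself shows how each mRNA was distributed, relative to all mRNAs of the pool. Tgfbr2 was the most polysomal of the 10, with ratios of 1.28, 1.51, 1.41 and 1.07, a mean of 1.31 ± 0.0826 (SE, adjusted p = 6.39e-09, limma) and 1.24 and 1.39 at its 2 probes. Tgfb3 followed with 0.82, 0.70, 0.63 and 0.81 (mean 0.74, adjusted p = 4.35e-06) and Tgfb2 with a mean of 0.58 (adjusted p = 0.00671). These 3 were called higher and none lower, where 31.7% of all genes were called higher and 28.4% lower. The other 7 were not called, among them Inhba at -0.22 (adjusted p = 0.0549) and Inhbb at 0.21 (adjusted p = 0.081), and the means of Tgfb3 and Tgfb2 differed by less than the spread of the Tgfb2 ratios. The Tgfb2 call was lost with 75th percentile scaling (0.35, adjusted p = 0.0614), where Inhbb was called (0.42, adjusted p = 0.0018). Inhbb was also called with the slide as a block (adjusted p = 0.0414) and without replicate 3 (adjusted p = 0.039), Smad6 was called without replicate 4 (0.32, adjusted p = 0.0163), and Inhba was called lower with normexp (adjusted p = 0.0486). Both fractions were hybridized on arrays of equal scale, and with spike-in scaling the median of all genes in this comparison was 1.52. All 10 were then called higher, as were 13323 of all 19367 genes. Tgfbr2 then stood at 3.04, which is 1.51 above that median.

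The rest of the pathway was read from 5 gene lists. Over all genes 10.7% were called lower and 11.1% higher on polysomes, and 12.3% and 11.8% in subpolysomes. Whether the counts of the lists differ from these shares was not tested. Of 25 further activin, BMP and related ligands 15 were tested, of which 3 fell and 2 rose on polysomes, and 3 fell and 1 rose in subpolysomes. Bmp8a fell (log2 -0.64, adjusted p = 0.000422, limma), as did Gdf11 (-0.82) and Inha, the inhibin alpha subunit that turns activin subunits into an activin antagonist. Inha was above background on all 8 scramble arrays but on 1 polysomal and no subpolysomal eIF6 shRNA array, and its subpolysomal signal was at least 1.86-fold lower (adjusted p = 8.8e-05, limma). Gdf15, a stress-induced ligand, rose (0.56, adjusted p = 0.0124) and so did Lefty1, a Nodal antagonist (0.38, but -0.055 with spike-in scaling). The Gdf15 call was lost without replicate 1 (adjusted p = 0.132) and the Lefty1 call without replicate 1, 2 or 3 (adjusted p = 0.114, 0.122 and 0.102). Inha, Gdf11 and Lefty1, like the genes named as such below, were named after their values were seen.

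Of 17 other receptors and co-receptors 13 were tested, 3 fell on polysomes and 3 in subpolysomes, and none rose. Those lower on polysomes were Acvrl1, the ALK1 type I receptor (log2 -1.05, adjusted p = 6.93e-06, limma), Acvr1, a BMP type I receptor (-0.59), and Bmpr2, the BMP type II receptor (-0.57, named after its value was seen). The activin receptors Acvr1b and Acvr2b differed by 0.25 and -0.01 on polysomes and were not called, and Acvr2a, the other activin type II receptor, differed by -0.33 there (adjusted p = 0.282) and fell by 0.61 in subpolysomes (adjusted p = 0.0359). With Acvrl1 (-0.67) and Bmpr1a, a BMP type I receptor (-0.31), it made up the subpolysomal calls, and the Acvr2a and Bmpr1a calls were lost without replicate 1, 2 or 3. These activin receptors and Bmpr1a were named for their role or after their values were seen. The Acvr1 and Bmpr2 calls were lost without replicate 1 (adjusted p = 0.131 and 0.246) or 2 (adjusted p = 0.0921 and 0.201), that of Bmpr2 also without replicate 3 (adjusted p = 0.126) and with the replicate block (adjusted p = 0.0846). Of 19 SMADs and SMAD regulators 18 were tested and 1 rose on polysomes, Nedd4l, a ubiquitin ligase acting on SMADs and receptors (0.48, adjusted p = 0.0126). That call was lost without replicate 2 or 3 (adjusted p = 0.0612 and 0.15) and without the filter on dim probes (0.20, adjusted p = 0.892), and the value was 0 with spike-in scaling. The SMADs that carry the signal, named for their role, were not called, with polysomal differences of 0.00 for Smad2, 0.20 for Smad3 and 0.09 for Smad4. In subpolysomes Smurf2, a ubiquitin ligase recruited by SMAD7, fell by 0.63 (named after its value was seen).

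Of 21 genes for proteins that store, activate or neutralize the ligands 19 were tested, 9 fell and 2 rose on polysomes, where the median was -0.38 against 0.02 over all genes, and 7 fell and 3 rose in subpolysomes. Thbs1, thrombospondin-1, which activates latent TGF-beta, fell by 2.76 on the log2 scale (adjusted p = 5.21e-07, limma), and Fstl1, a follistatin-like secreted protein, fell by 2.59 (adjusted p = 1.46e-09). Fst, the activin-binding protein follistatin (named after its value was seen), fell by 1.60 on polysomes and by 1.14 in subpolysomes, in the same arrays in which Inhba fell. Lrrc32, which holds latent TGF-beta at the cell surface, rose by 1.29 and Itgb6, an integrin subunit that activates it, by 1.37 (both named after their values were seen). With spike-in scaling 8 of these genes were called lower and none higher, where 1044 and 98 of all 19367 genes were on polysomes.

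Of the 24 target genes, all tested, 12 fell and 3 rose on polysomes (10.7% and 11.1% of all genes), with a median of -0.36. In subpolysomes 14 fell and 1 rose (12.3% and 11.8% of all genes). Col1a2 and Col1a1, the chains of type I collagen, fell by 3.53 and 3.11 on the log2 scale (adjusted p = 1.48e-08 and 1.84e-07, limma). Junb (0.61), Cdkn1a (0.50) and Bhlhe40 (0.45), named after their values were seen, rose. The calls of Cdkn1a and Bhlhe40 were lost without replicate 2 (adjusted p = 0.0834 and 0.0757), that of Cdkn1a also without replicate 1 (adjusted p = 0.0837) and that of Bhlhe40 without replicate 3 (adjusted p = 0.253). With the brightest of its 3 probes Cdkn1a differed by 0.17 on polysomes (adjusted p = 0.164) and by 0.14 in subpolysomes (adjusted p = 0.239). Ctgf, a commonly used TGF-beta readout named for its role, differed by 0.29 and was not called (adjusted p = 0.151). With spike-in scaling 8 targets were called lower and none higher, where 1044 and 98 of all 19367 genes were on polysomes. Acta2 stands in both the target list and the fibroblast list. In the latter Pdgfrb fell by 3.096, Thy1 by 2.45 and Acta2 by 2.73 on polysomes, Pdgfra being at least 7.1-fold lower. Des fell by 1.39 there, but was well above background on only 8 of 16 arrays and differed by 0.015 in subpolysomes. Its polysomal change ran from -2.07 to -0.33 over the alternatives. Vim, also of that list, differed by -0.38 and was not called, and the part of these markers in the lower collagen signal was not tested.

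Translational efficiency was called lower for 4 targets, and for 1.1% of all genes. It fell for Col1a2 (log2 -2.31), Acta2 (-1.87) and Tagln (-1.25), and for 3 genes of ligand storage and antagonism, Bgn (-1.71), Fstl1 (-1.27) and Ltbp2 (-0.58), while it rose for none of the 5 lists (Tagln, Id4 and Ltbp2 were named after their values were seen). The fourth, Id4, was well above background on no eIF6 shRNA array and on 2 of 4 scramble subpolysomal arrays, so that its ratio is not a measured one. Its polysomal signal was at least 5.36-fold lower with eIF6 shRNA (adjusted p = 1.19e-06, limma). The calls of Id4 and Ltbp2 were lost whichever replicate was left out, and that of Bgn without replicate 1, 2 or 3 (adjusted p = 0.0941, 0.0891 and 0.132). With spike-in scaling none of these efficiency calls held. The values were then -1.82 for Col1a2, -1.67 for Acta2, -1.34 for Tagln and -1.59 for Fstl1.

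**Figure D4:**
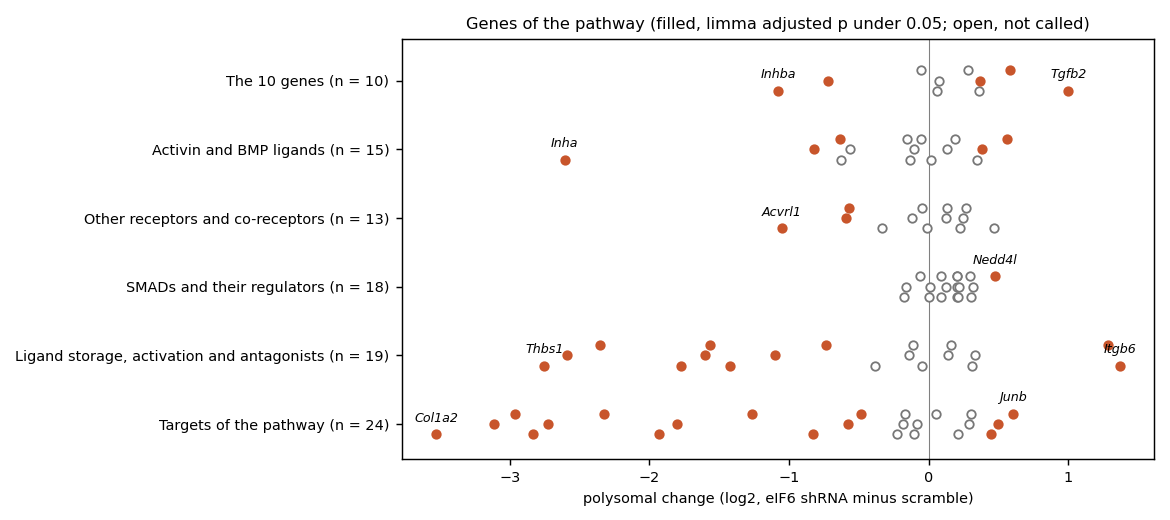
Polysomal change (log2, eIF6 shRNA minus scramble) of the 10 genes and of the tested genes of 5 pathway lists, one point a gene; filled points were called by limma (n = 4 arrays a group) and open points were not. The 10 genes span -1.08 to 1.00, whereas targets reach -3.53 and genes of ligand storage and antagonism reach -2.76.

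Over the 16 arrays the genes whose values ran most like those of Inhba, among 13342 compared, were Ccdc102a (Pearson r = 0.991), Foxc2, a forkhead transcription factor (0.982), and Fbn1, which encodes the microfibril protein fibrillin-1 that anchors latent TGF-beta complexes (0.981). The arrays fall into 4 groups, so that these correlations largely reflect shared group means and are given as a description.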

How the data were processed

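The authors deposited Agilent Feature Extraction output for 16 arrays, with an intensity for each spot that is background-corrected and not normalized between arrays, and a table of log2 values that the authors quantile normalized. The deposited headers name Feature Extraction 10.7.3.1 and 5 µm scans on arrays of 44397 spots, whereas the submitters' processing notes give 10.7.7.1. The members and gene lists were chosen with earlier results of these data known.

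Spots marked uneven or outlying were left out, spots of a probe averaged, and a probe kept if its signal was well above background in 2 or more arrays of any group. Log2 intensities were quantile normalized (limma 3.58.1, R 4.3.3) and averaged by gene name. Linear models with 4 group means gave the polysomal and subpolysomal changes, the change in translational efficiency (their difference) and, in scramble cells, polysomal minus subpolysomal signal. P values were moderated and adjusted by Benjamini-Hochberg over 19367 genes, with intervals from the moderated t distribution. The scripts were tested on simulated data. The methods call the samples biological quadruplicates.

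Besides the 10 genes and Eif6, the text names from each list the 2 called genes with the largest polysomal change and with the largest change in efficiency, among genes above background on all 16 arrays, and the 3 genes most correlated with Inhba; others are marked, either as named after their values were seen or for their role. Lost calls count over the alternatives of each result. For a gene not well above background on any array of a group, the fold is a bound, from the bright group's mean against the higher of the dim signal and the lowest signal well above background of each array. The alternatives were a scale set by the 75th percentile, one set by 8 spike-in probes, separate normalization of fractions, normexp (offset 50), 2 other filters, the brightest probe, the authors' log2 values, slide, replicate number or culture as a block, and each replicate left out. Probe positions are mm9, from the files; exon positions were not analysed here. Promoters are RefSeq, GRCm38.p6, and figures used matplotlib 3.10.9. In the methods, same-numbered samples are not described as paired, and deviations of same-numbered arrays from their group means correlated between -0.441 and 0.705. The values of 1 target gene are not reported here.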

Additional observations from a re-analysis of the deposited data

Results flagged for a closer look

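In 40 groups of 4 arrays (10 genes in 4 groups), no array of a member lay apart from the other 3 by Dixon's criterion, which chance alone meets in about 1 of 20 groups. Among Eif6 and the 5 pathway lists, 8 genes were called for a change in translational efficiency, a difference between the polysomal and the subpolysomal change (limma), of 214 lower and 78 higher over all genes. These were Eif6 (-1.07 on the log2 scale), Fstl1 (-1.27), Bgn (-1.71), Col1a2 (-2.31), Acta2 (-1.87), Ltbp2 (-0.58), Tagln (-1.25) and Id4. The fitted Id4 value of -1.61 sets signals against each other that were not well above background on any eIF6 shRNA array, so that no difference between fractions can be read from it. With spike-in scaling none of these 8 calls held.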

How the results depend on the processing

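Spike-in scaling, under which the median of all genes was -0.48 on polysomes, -0.24 in subpolysomes, -0.21 for translational efficiency and 1.52 between fractions, left 1 member lower and 0 higher on polysomes, 0 and 0 in subpolysomes, and 10 higher between fractions of scramble cells. It turned the sign of the polysomal change of Tgfb1 (-0.17), Inhbb (-0.40), Tgfbr3 (-0.11), Smad6 (-0.10), Smad7 (-0.50) and Lefty1 (-0.055), and of the subpolysomal change of Tgfb1 (-0.012), Inhbb (-0.21), Tgfbr1 (-0.008), Tgfbr3 (-0.19) and Eif6 (-0.23). It also turned the change in efficiency of Tgfb1 (-0.16), Tgfb3 (-0.19), Inhba (-0.16), Inhbb (-0.19) and Tgfbr2 (-0.16), and the fraction difference of Tgfb1 (1.58), Inhba (1.73) and Tgfbr1 (1.63). Scaling to the 75th percentile turned Smad7 on polysomes (-0.026), Tgfb3 (-0.01) and Inhbb (-0.004) in efficiency, and Inhba (0.006), Tgfbr3 (-0.02) and Smad7 (-0.16) between fractions. Normexp turned the efficiency of Tgfb1 (-0.007) and Tgfbr2 (-0.011), the brightest probe turned Tgfbr2 in subpolysomes (0.042) and in efficiency (-0.053), and separate normalization turned Tgfb3 in efficiency (-0.013). None of these values was called before the change but Smad6, Tgfbr1 and Lefty1. The cause was not tested.

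Without the filter 1 member was higher on polysomes and 1 in subpolysomes, where 75th percentile scaling, separate normalization and the brightest probe also left 1. Normexp called 1 member lower between fractions, Inhba. Leaving out each replicate in turn gave 0 to 3 members higher in subpolysomes, with 0 without replicate 1 or 3 and 1 without replicate 2, and 2 to 4 higher on polysomes. The same runs gave Smad7 -0.03 to 0.18 on polysomes, Inhbb -0.09 to 0.10, Tgfbr3 -0.013 to 0.24, Smad6 -0.044 to 0.048 and Eif6 -0.044 to 0.075 in subpolysomes. In efficiency they gave Tgfb1 -0.15 to 0.13, Tgfb3 -0.053 to 0.12, Inhbb -0.053 to 0.18 and Tgfbr2 -0.019 to 0.075, and between fractions Tgfbr1 -0.092 to 0.07 and Tgfbr3 -0.11 to 0.17. The replicate block gave 2 members lower and 3 higher on polysomes and 2 and 2 in subpolysomes, as without it; its numbers are not known to pair cultures.

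Of all genes, 2390 were lower and 2294 higher in subpolysomes, against 1404 and 1220 without replicate 1 and 3106 and 3049 without replicate 4. For efficiency the 214 lower and 78 higher became 54 to 181 and 20 to 114 with a replicate left out, 426 and 59 with 75th percentile scaling, 340 and 130 with separate normalization, 390 and 177 with normexp, 142 and 55 without the filter and 26 and 2 with spike-in scaling. On polysomes 2072 were lower and 2148 higher, against 1044 and 98 with spike-in scaling and 1296 to 2625 higher with a replicate left out. Spike-in scaling left 346 and 39 in subpolysomes and turned 5496 lower and 6134 higher between fractions into 391 and 13323, and 75th percentile scaling gave 7312 and 4997 there.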
